A study of Mus musculus with 8 samples.

Results

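Potassium channel genes were taken as every gene with an mRNA probe whose symbol starts with Kcn, the prefix that mouse nomenclature gives to potassium channel subunits and some of their partner proteins. The arrays carried 93 such genes, read by 204 probes, among 20476 genes with an mRNA probe. A signal well above background on 4 or more of the 8 arrays was required for testing, which 89 of the genes met and Kcnh3, Kcnk18, Kcnv1 and Kcnv2 did not. All 8 arrays gave a signal well above background for 85 of the 89. Kcnu1 lacks 1 control value, so its difference rests on 3 control arrays.

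Spinal cord RNA came from 8 female mice aged 8 weeks, 1 mouse per array, 4 with a contusion injury (a bruise from a blunt impact) and 4 controls. The injured samples are titled as taken 3 days after contusion, but only the description of replicate 1 says 3 days, and those of replicates 2, 3 and 4 say 4, 5 and 6. Segments T9 to T10 were taken from injured and sham-operated mice in the wording of the design text, while the control descriptions speak of normal cord. No label gives the strain. Arrays were 1-colour (Cy3) Agilent arrays with probes for circRNAs, lncRNAs and mRNAs, and 72.9% to 75.4% of probes were well above background on each. The arrays came from 2 slides: slide 1 held contusion 1 with controls 2, 3 and 4, and slide 2 held contusions 2, 3 and 4 with control 1. A level below is a probe's log2 intensity minus the 75th percentile of its array, so it has no meaning between probes. A difference is the mean contusion level minus the mean control level (log2), given ± its standard error, with 4 arrays per group. Adjusted p-values are limma's, after Benjamini-Hochberg adjustment over all 89134 mRNAs, lncRNAs and circRNAs, and a gene is called at an adjusted p under 0.05.

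Potassium channels let potassium leave or enter a cell and so set its resting potential, end its action potentials and time its firing. Voltage-gated pores open on depolarisation, calcium- and sodium-activated pores open as those ions rise, inward rectifiers hold the resting potential, and two-pore-domain channels carry background leak. In the cord, neurons and their myelinated axons carry most of the voltage-gated subunits, astrocytes take up extracellular potassium through inward rectifiers, and microglia, macrophages and lymphocytes use a small set of other channels.

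Most potassium channel mRNAs were lower in contused cord. Of the 89 tested genes, 54 were called lower and 5 higher, and 30 were not called, where 51.1% of all 18198 mRNAs were called in either direction, 25.3% lower and 25.8% higher. The median difference was -0.60, against -0.00 over all mRNAs. All 4 contusion arrays lay below all 4 control arrays for 54 genes (25.1% of all mRNAs) and above them for 6 (26.6% of all mRNAs). At least 2-fold lower were 14 of the called genes (1.77% of all mRNAs), and at least 2-fold higher were 4 (8.33%). Of the 14, Kcng3 was well above background on no contusion array and is bounded only at 1.04-fold lower. Kcna10, also among them, was well above background on only 1 contusion array. The 5 called higher were Kcnn4, Kcne3, Kcnk6, Kcnq1 and Kcne1l. The median difference was -0.55 within slide 1 and -0.45 within slide 2. Each of the 59 called genes had the same sign within both slides, which was fixed in advance wherever the groups did not overlap. That held for all of them but Kcnk15, so the signs do not test an effect of slide. With slide as a block 54 were called lower and 6 higher, and the median difference was -0.52. It was -0.30 with normexp background correction and quantile normalization, which draws in the differences of dim probes, and 9 genes were then called at least 2-fold lower.

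**Figure D1:**
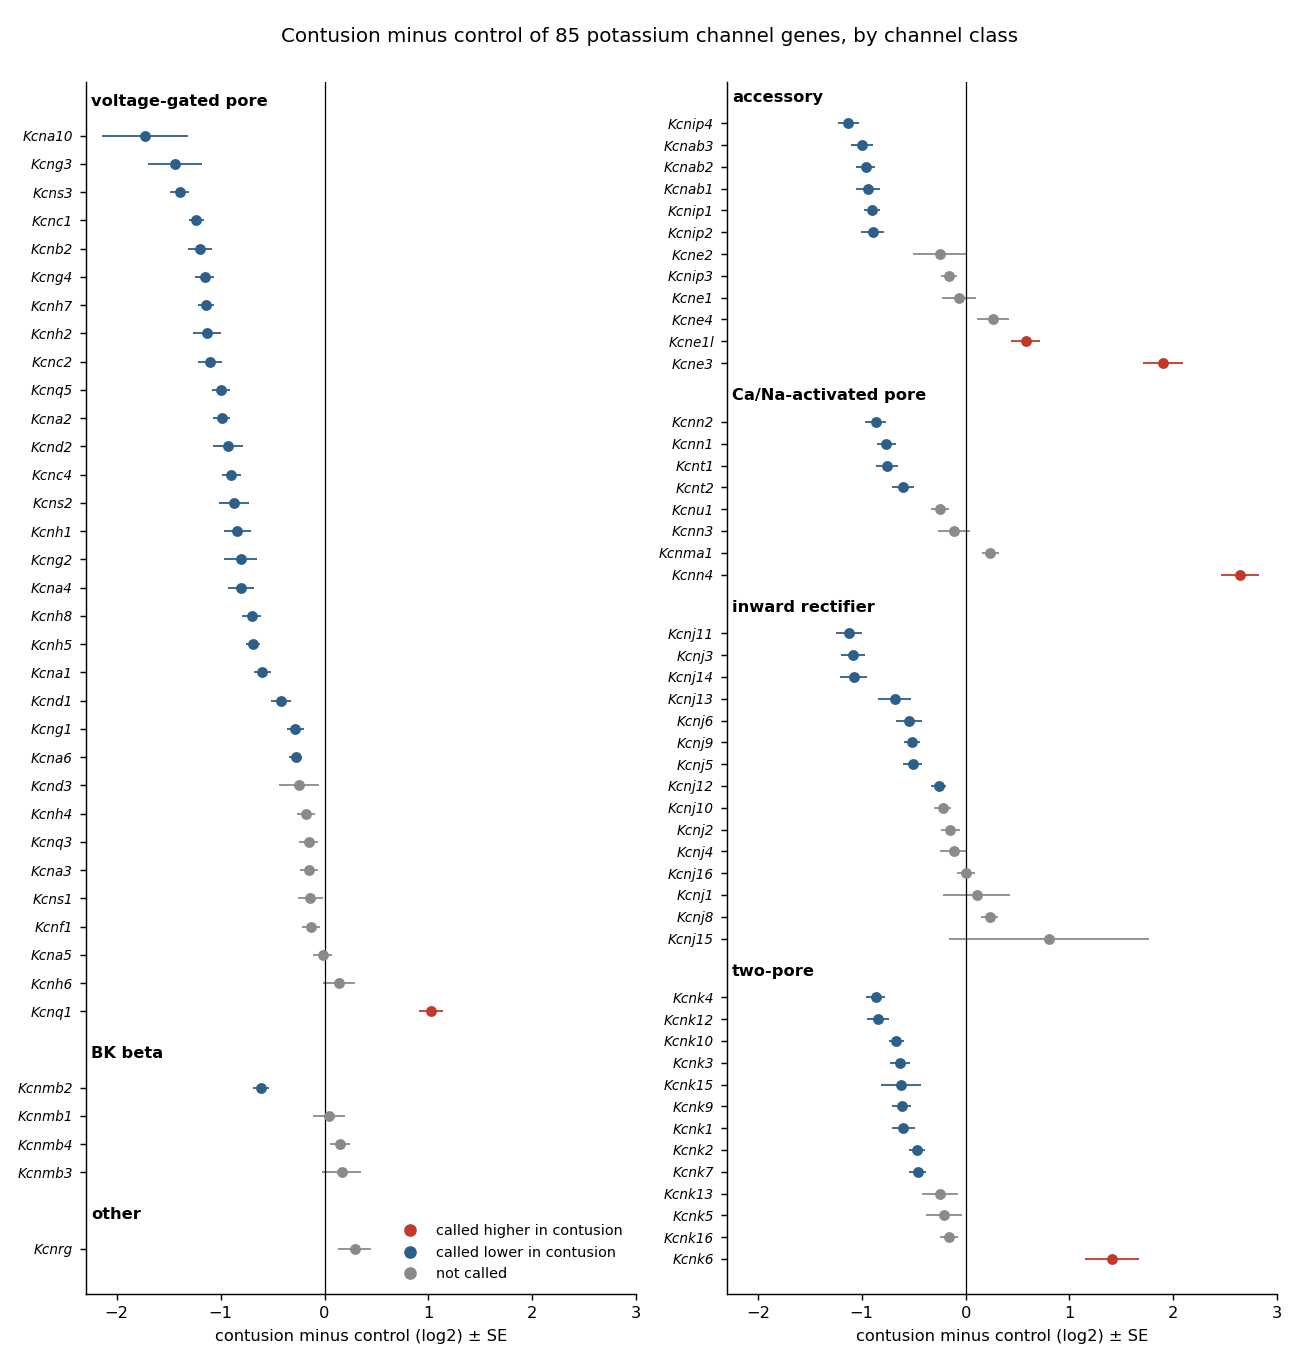
Difference between contusion and control (log2, x axis) of 85 of the 89 tested potassium channel genes, with limma's standard error as bars, grouped by channel class. Blue points (51) were called lower in contusion, red points (5) higher and grey points (29) neither. For Kcng3 no contusion array was well above background, so its point overstates what was measured, and for Kcna10 only 1 contusion array was well above background.

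Markers of other cells moved in the same samples. The summed linear levels of 6 neuron markers were 797 to 969 on contusion arrays and 1287 to 1596 on control arrays, and all 6 were called lower (median difference -0.71). Those of 6 monocyte and macrophage markers were 343 to 442 on contusion arrays and 16.8 to 78.5 on control arrays, and all 6 were called higher. Whole tissue was measured, so fewer cells of a type and less RNA per cell cannot be told apart. The part of either shift in the differences below was not tested. Skeletal muscle markers summed to 216 on contusion 1 and 65.1 on contusion 2, against 28.5 and 30.1 on the other contusion arrays and 36.5 to 48.9 on controls. Without contusions 1 and 2, 50 genes were called lower and 5 higher.

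Voltage-gated pore subunits were the class with the most members. Of 36 tested, 26 were called lower and 1 higher, with a median difference of -0.81. Kcnc1, Kcnc2 and Kcnc4, of the Shaw family, encode pores that close fast and let neurons fire at high rates, and all 3 were called lower. Kcnc1 (NM_001112739, chromosome 7) had levels of 3.09, 3.04, 3.10 and 3.05 on the contusion arrays, against 4.27, 4.36, 4.17 and 4.41 on the control arrays. The groups lay far apart and the contusion arrays were nearly equal. Its difference was -1.23 ± 0.07 (2.35-fold lower, adjusted p = 8.21e-05). The difference of Kcnc2 was -1.11 ± 0.12 and that of Kcnc4 -0.90 ± 0.09. Parvalbumin (Pvalb), a calcium buffer of fast-firing neurons that skeletal muscle also makes, differed by -0.97 ± 0.12 (adjusted p = 0.000446).

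The Shaker family, Kcna, includes the subunits that lie beside the nodes of Ranvier on myelinated axons. In all, 5 of its 7 genes were called lower. Kcna1 (NM_010595), one of those axonal subunits, had levels of 6.52, 6.63, 6.58 and 6.46 on contusion arrays, against 7.13, 7.25, 6.96 and 7.24 on control arrays. The groups did not overlap, and the difference was -0.60 ± 0.08 (1.51-fold lower, adjusted p = 0.000845). Kcna2 (NM_008417), its partner at the same sites, had levels of 4.36, 4.35, 4.37 and 4.24 on contusion arrays, against 5.13, 5.40, 5.30 and 5.44 on control arrays. The groups again lay apart, with a difference of -0.99 ± 0.08 (1.99-fold lower, adjusted p = 0.000152). Kcna4, an A-type subunit, was called lower at -0.80 ± 0.12 and Kcna6 at -0.28 ± 0.07. Kcna6 was not called without contusions 1 and 2 (adjusted p = 0.0597). Kcna3 (NM_008418), a channel of T cells and activated microglia, had levels of -2.11, -1.99, -1.94 and -1.87 on contusion arrays and -1.76, -1.69, -1.87 and -1.99 on control arrays. These overlapped, and its difference of -0.15 ± 0.09 was not called (adjusted p = 0.214). Kcna5 was also not called, at -0.02 ± 0.09. Kcna10 was well above background on 4 control arrays but only 1 contusion array, so its measured difference of -1.73 ± 0.41 (adjusted p = 0.0109) rests mostly on contusion values near background. With normexp and quantile normalization its difference was -0.20.

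Kcnb2 forms a delayed rectifier of neuronal cell bodies, and the Kcnf, Kcng, Kcns and Kcnv subunits conduct nothing alone but modify such pores. Kcnb2 differed by -1.20 ± 0.12 (adjusted p = 0.000218). Among the modifiers, Kcns3 (NM_173417, chromosome 12) had levels of 1.45, 1.49, 1.53 and 1.27 on contusion arrays, against 2.73, 2.97, 2.70 and 2.92 on control arrays. Every contusion array was more than 1 log2 unit below every control array. Its difference was -1.40 ± 0.09 (2.63-fold lower, adjusted p = 9.12e-05). Of the Kcng genes, Kcng4 differed by -1.16 ± 0.09 (adjusted p = 0.000141), Kcng2 by -0.81 ± 0.16 and Kcng1 by -0.28 ± 0.08. The call of Kcng1 was lost in 6 of 18 alternative settings, 5 of which left out a single array. Kcng3 was not well above background on any contusion array, so it was at least 1.04-fold lower there, with measured means of -6.62 on contusion and -5.18 on control arrays. It passed the filter through its control arrays alone, so its call (adjusted p = 0.00293), counted among the 54, rests on contusion values not above background. The adjusted p was 0.055 with no filter on dim probes and 0.0859 with normexp and quantile normalization. Kcns2 was called lower (-0.87 ± 0.14), whereas Kcns1 (-0.14 ± 0.12, adjusted p = 0.405) and Kcnf1 (-0.13 ± 0.08, adjusted p = 0.266) were not called.

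Kcnd2 carries the A-type current of dendrites and was called lower, at -0.93 ± 0.14 (adjusted p = 0.00138). Control 1 had its lowest control level, 3.21, against 3.65 to 3.72 on the other controls, and was still above the highest contusion level of 2.89. Kcnd1 differed by -0.42 ± 0.09 (adjusted p = 0.00861) and Kcnd3 by -0.24 ± 0.19 (adjusted p = 0.362). A second Kcnd3 probe was called lower in the fit of all probes (-0.46 ± 0.12, adjusted p = 0.0143). With the mean of its probes, Kcnd1 was not called (adjusted p = 0.71).

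The Kcnh genes encode the ether-a-go-go channels, and 5 of 7 tested were called lower. Kcnh7 (NM_133207, chromosome 2) had levels of -2.83, -2.78, -2.92 and -2.96 on contusion arrays, against -1.76, -1.60, -1.71 and -1.85 on control arrays. The groups were separated by nearly 1 log2 unit, and the difference was -1.14 ± 0.08 (2.21-fold lower, adjusted p = 9.7e-05). Kcnh2, whose human counterpart is the cardiac repolarising channel that many drugs block, differed by -1.13 ± 0.13 (adjusted p = 0.000426). Kcnh1 differed by -0.84 ± 0.13. Kcnh4 and Kcnh6 were not called, at -0.18 ± 0.08 and 0.14 ± 0.15. A second, dimmer Kcnh4 probe was called higher in the fit of all probes (0.31 ± 0.11, adjusted p = 0.0437). With normexp and quantile normalization the difference of Kcnh7 was -0.43 and that of Kcnb2 was -0.59, both still called.

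Kcnq3 and Kcnq5 contribute to the M current that brakes repetitive firing, while Kcnq1 serves the heart and epithelia. Kcnq5 was 2.00-fold lower (-1.00 ± 0.08, adjusted p = 0.000155). Kcnq3 differed by -0.15 ± 0.09 (adjusted p = 0.225). Its contusion levels, 1.05 to 1.11, lay within the control range of 0.98 to 1.38, but only through control 3. The other controls, 1.26 to 1.38, were above every contusion array. Without control 3 Kcnq3 was called lower, at -0.23 (adjusted p = 0.032). Kcnq1 (NM_008434, chromosome 7) was the one voltage-gated pore called higher. It had levels of -0.35, -0.34, -0.49 and -0.17 on contusion arrays, against -1.18, -1.44, -1.21 and -1.61 on control arrays. The groups did not overlap, and Kcnq1 was 2.03-fold higher (1.02 ± 0.11, adjusted p = 0.000362).

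Accessory subunits of voltage-gated channels were divided by family. All 3 Kcnab genes, whose cytoplasmic beta subunits bind the Shaker pores, were called lower by similar amounts: Kcnab1 at -0.94 ± 0.11, Kcnab2 at -0.96 ± 0.09 and Kcnab3 at -1.00 ± 0.11. Kcnab2 (NM_010598) had levels of 3.93, 4.03, 3.90 and 3.88 on contusion arrays, against 5.06, 4.92, 4.67 and 4.95 on control arrays. Of the Kcnip calcium sensors, which bind the Kcnd pores, 3 of 4 were called lower, with Kcnip4 at -1.13 ± 0.10 (2.19-fold lower, adjusted p = 0.000169). Kcnip3, which is also known as a transcriptional repressor, differed by -0.16 ± 0.08 (adjusted p = 0.142). In the fit of all probes another Kcnip3 probe was called lower (-0.24 ± 0.08, adjusted p = 0.0324), and a further probe was not called (0.09 ± 0.07). The single-span Kcne subunits went otherwise: 2 of 5 were called higher and 3 were not called. Kcne3 (NM_001190870, chromosome 7), a partner of Kcnq1 in epithelia, had levels of -2.47, -2.19, -2.91 and -2.23 on contusion arrays, against -4.24, -4.56, -4.02 and -4.59 on control arrays. All contusion arrays were above all controls, and the difference was 1.90 ± 0.19 (3.74-fold higher, adjusted p = 0.000237). It was 0.56 with normexp and quantile normalization and still called. Kcne1l had levels of 4.27, 3.64, 4.11 and 4.22 on contusion arrays, against 3.47, 3.47, 3.60 and 3.38 on control arrays. Contusion 2 lay just above the highest control, and the difference was 0.58 ± 0.14 (1.49-fold higher, adjusted p = 0.0117).

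**Figure D2:**
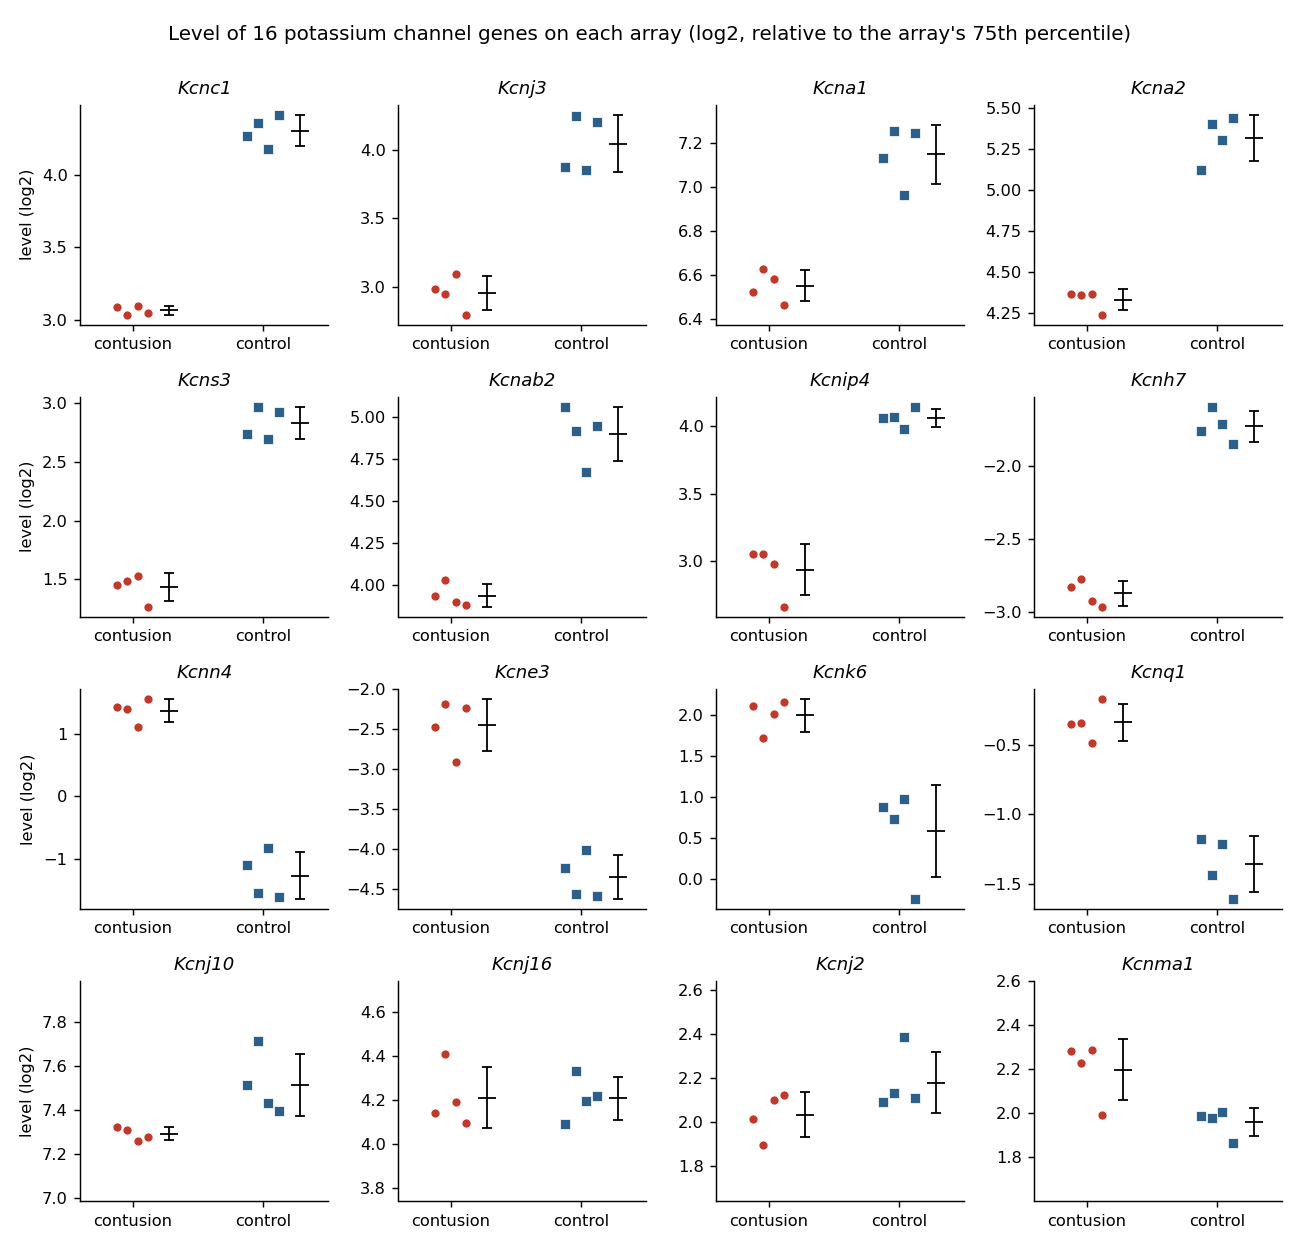
Level (log2, relative to the array's 75th percentile, y axis) of 16 potassium channel genes on the 4 contusion arrays (red circles) and the 4 control arrays (blue squares), with mean ± SD in black and a separate y axis for each gene. The groups do not overlap in the upper 3 rows, lower in contusion for Kcnc1 to Kcnh7 and higher for Kcnn4, Kcne3, Kcnk6 and Kcnq1, while Kcnj16, Kcnj2 and Kcnma1 overlap.

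Of 8 genes grouped by symbol (Kcnma, Kcnn, Kcnt and Kcnu) as calcium- or sodium-activated pores, 4 were called lower and 1 higher. Kcnu1, in this group by symbol alone, was not called (-0.25 ± 0.09, adjusted p = 0.07). Kcnn4 (NM_001163510, chromosome 7), the intermediate-conductance channel of lymphocytes, macrophages and microglia, had levels of 1.44, 1.40, 1.11 and 1.55 on contusion arrays, against -1.09, -1.54, -0.82 and -1.60 on control arrays. Every contusion array was above every control by nearly 2 log2 units. Its difference of 2.64 ± 0.18 (6.24-fold higher, adjusted p = 0.000106) was the highest among the potassium channel genes. The neuronal small-conductance channels Kcnn1 and Kcnn2, which make the afterhyperpolarisation that follows a spike, were called lower at -0.76 ± 0.10 and -0.87 ± 0.10. Kcnn3 was not called, at -0.11 ± 0.16 (adjusted p = 0.608). Both sodium-activated channels were called lower, Kcnt1 at -0.76 ± 0.10 and Kcnt2 at -0.60 ± 0.11.

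Kcnma1, the pore of the large-conductance (BK) channel, was the one member whose probes were called in opposite directions. The probe that stands for the gene had levels of 2.28, 2.23, 2.29 and 1.99 on contusion arrays, against 1.99, 1.98, 2.01 and 1.86 on control arrays. The groups overlapped at contusion 4, and the difference was 0.24 ± 0.08 (adjusted p = 0.0519 in the fit with 1 probe per gene, and 0.0454 in the fit of all probes). The other probe had levels of -0.17, -0.22, -0.42 and -0.49 on contusion arrays, against 0.43, 0.24, 0.06 and 0.25 on control arrays. Those groups did not overlap, and in the fit of all probes its difference was -0.57 ± 0.10 (adjusted p = 0.00286). The first 30 bases of the probes are shown because the direction depends on which is read. Each is given from the end where the deposited sequence starts, with RefSeq NM_001253364 as the target of the first and NM_010610 as the target of the second, per the file headers.
Kcnma1 probe with the difference of 0.24: cactgctgggggttttcttctataacgttg
Kcnma1 probe with the difference of -0.57: tggtgatctgttctgcaaagctctgaaaac
Where in the transcript each probe lies was not determined here. Of the BK beta subunits, Kcnmb2 was called lower (-0.61 ± 0.08, adjusted p = 0.000656), and Kcnmb1, Kcnmb3 and Kcnmb4 were not, at 0.04 ± 0.16, 0.16 ± 0.19 and 0.15 ± 0.10.

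Of 15 inward rectifiers tested, 8 were called lower and none higher by limma (1 at an unadjusted p under 0.05, and none with normexp and quantile normalization), with a median difference of -0.26. Kcnj3 forms the G-protein-gated channel that transmitters open to silence neurons. It had levels of 2.99, 2.95, 3.09 and 2.80 on contusion arrays, against 3.87, 4.25, 3.85 and 4.21 on control arrays, and its difference was -1.09 ± 0.12 (2.13-fold lower, adjusted p = 0.000294). Its partners Kcnj5, Kcnj6 and Kcnj9 were called lower at -0.51 ± 0.09, -0.54 ± 0.12 and -0.52 ± 0.08. Kcnj11, the pore of the ATP-sensitive channel of neurons, was 2.18-fold lower (-1.12 ± 0.12, adjusted p = 0.000318), and Abcc8, the sulphonylurea receptor that surrounds it, differed by -1.00 ± 0.10 (adjusted p = 0.000208). Kcnj8 and Abcc9, the matching pair of pericytes and smooth muscle, went the other way in sign. Kcnj8 had levels of 2.35, 2.54, 2.35 and 2.41 on contusion arrays, against 2.15, 2.05, 2.34 and 2.17 on control arrays. The groups were adjacent without overlapping, and the difference of 0.23 ± 0.08 missed the threshold (adjusted p = 0.0543). It passed when probes had to be well above background on all 8 arrays (adjusted p = 0.0467) and without control 3 (adjusted p = 0.0269). It also passed with Benjamini-Hochberg adjustment over mRNAs alone (adjusted p = 0.0412). Abcc9 was called higher at 0.31 ± 0.07 (adjusted p = 0.0102). Kcnj14, known from motor neurons of the brainstem in rat, was 2.11-fold lower (-1.08 ± 0.13, adjusted p = 0.000458).

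Kcnj10 (NM_001039484), the main astrocyte channel for potassium uptake, had levels of 7.32, 7.31, 7.26 and 7.27 on contusion arrays, against 7.51, 7.71, 7.43 and 7.39 on control arrays. Every contusion array was below every control, though by a narrow gap. The difference of -0.22 ± 0.08 missed the threshold (adjusted p = 0.0599). It passed with the authors' log2 table (adjusted p = 0.024) and with normexp and quantile normalization (adjusted p = 0.0108). It also passed with the mean of the gene's probes (adjusted p = 0.0251) and with Benjamini-Hochberg adjustment over mRNAs alone (adjusted p = 0.0458). A second Kcnj10 probe was called lower in the fit of all probes (-0.28 ± 0.08, adjusted p = 0.0187). Kcnj16, its partner in astrocytes, had levels of 4.14, 4.41, 4.19 and 4.10 on contusion arrays and 4.09, 4.33, 4.20 and 4.22 on control arrays. They overlapped throughout, with a difference of 0.00 ± 0.09 (adjusted p = 0.99), although 1 of its 3 other probes was called higher (0.32 ± 0.08, adjusted p = 0.0129 in the fit of all probes). Kcnj2, a strong rectifier of many cells including microglia, differed by -0.15 ± 0.09 (adjusted p = 0.241). Astrocyte markers were themselves split, with 3 of 6 called higher and 2 lower. Their summed levels were 790 to 843 on contusion arrays and 630 to 816 on controls. Kcnj12 was called lower at -0.26 ± 0.07, but not without contusions 1 and 2. A second Kcnj12 probe was called lower in the fit of all probes by a larger amount (-0.87 ± 0.11, adjusted p = 0.000406).

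Two-pore-domain channels were lower as a class, with 9 of 13 called lower, 1 higher and a median difference of -0.60. Kcnk1 (NM_008430), a weak leak channel of neurons and astrocytes, had levels of 4.53, 4.50, 4.41 and 4.36 on contusion arrays, against 4.78, 5.28, 4.97 and 5.17 on control arrays, a difference of -0.60 ± 0.11 (1.52-fold lower, adjusted p = 0.00361). Kcnk2, a mechanosensitive leak channel, differed by -0.47 ± 0.07 (adjusted p = 0.00171), and Kcnk4, a relative found at nodes of Ranvier, by -0.87 ± 0.09 (adjusted p = 0.000309). The acid-sensitive Kcnk3 and Kcnk9 were called lower at -0.63 ± 0.09 and -0.61 ± 0.09. Kcnk15 was called (-0.62 ± 0.19, adjusted p = 0.0351) but its groups overlapped, and the call was lost in 7 of 18 alternative settings. Kcnk6 (NM_001033525, chromosome 7), a leak channel of macrophages, had levels of 2.11, 1.71, 2.00 and 2.15 on contusion arrays, against 0.88, 0.73, 0.97 and -0.25 on control arrays. Control 4 was far below the other controls and also had the lowest summed macrophage markers, 16.8. The difference was 1.41 ± 0.26 (2.66-fold higher, adjusted p = 0.00334), and 1.13 without control 4 (adjusted p = 0.000989). Kcnk13 (NM_001164427), a microglial leak channel, had levels of 3.53, 3.12, 3.21 and 3.11 on contusion arrays and 3.04, 3.82, 3.49 and 3.61 on control arrays. The groups overlapped, and its difference of -0.25 ± 0.17 was not called (adjusted p = 0.299). Of the 5 microglia markers, 3 were called higher. Their summed levels were 172 to 204 on contusion arrays and 68.9 to 113 on controls.

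Kcnj15 varied more within each group than between the groups. It had levels of -3.60, -2.33, -2.57 and -0.72 on contusion arrays, and -3.22, -4.09, -0.40 and -4.71 on control arrays. Its highest array was control 3, and the difference of 0.80 ± 0.96 was not called (adjusted p = 0.552). Neutrophil markers summed to 39.2, 51.6, 144 and 106 on contusion arrays 1 to 4, and to 93.4, 16.1, 116 and 34.5 on control arrays 1 to 4, and their part in the spread was not tested. Kcnj15 was picked out after its values were seen. Kcnrg, a regulator of channel assembly with no pore, was not called at 0.29 ± 0.16.

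Several probes were available for most members. Of 182 tested probes, 116 were called lower and 16 higher when each was fitted alone, where 11138 of the 41078 tested probes of all mRNA genes were called lower and 10895 higher. Of the 70 genes with more than 1 tested probe, 42 had every probe called lower, 4 had every probe called higher and 14 had none called. In 9 genes called and uncalled probes were mixed, and Kcnma1 alone had calls in both directions. Over all mRNA genes with several tested probes, 2848 of 14890 had every probe called lower, 3052 had every probe called higher and 290 had opposite calls.

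Proteins that assemble with these channels or move potassium by other means followed a list of 37 genes, all tested, with 24 called lower, 3 higher and a median difference of -0.54. Among 22 channel partners 15 were called lower. Dpp6 and Dpp10, the membrane partners of the Kcnd pores, differed by -0.81 ± 0.08 and -0.84 ± 0.09, and Cntnap2, which anchors the Kcna pores beside the node, by -0.98 ± 0.11 (adjusted p = 0.000325). Amigo1, a partner of delayed rectifier pores, differed by -0.76 ± 0.11. All 4 hyperpolarisation-activated Hcn channels were called lower, from -0.27 to -0.81. Of 11 pump and cotransport genes, 5 were called lower and 2 higher. Slc12a5, the neuronal potassium-chloride cotransporter that keeps inhibition hyperpolarising, had levels of 6.61, 6.60, 6.75 and 6.51 on contusion arrays, against 7.38, 7.69, 7.45 and 7.60 on control arrays (-0.91 ± 0.09, adjusted p = 0.000221). Its relatives Slc12a7 and Slc12a4 were called higher, at 1.02 ± 0.12 and 0.62 ± 0.07.

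Because neuron markers fell too, the differences were also taken relative to the mean level of the 6 neuron markers on each array, a quantity added after the values were seen. That scale moved the median of all mRNAs to 0.69, and 2.45% of them were called lower on it and 80.0% higher. The median of the 89 potassium channel genes was 0.09, with 20 called lower, 35 higher and 34 not called. Of the 36 voltage-gated pores, 12 were lower than the neuron markers, 11 higher and 13 not called. Kcns3 differed from them by -0.71 ± 0.08 (adjusted p = 0.000123) and Kcnc1 by -0.55 ± 0.09 (adjusted p = 0.000737). All 3 Kcnab genes were also lower on this scale, from -0.25 to -0.31. Of the two-pore-domain channels 4 of 13 were higher than the markers and the other 9 were not called. Of the 8 genes grouped by symbol as calcium- or sodium-activated pores, 4 were higher and 4 were not called. The 6 markers differ among themselves, from -0.29 (Stmn2) to -0.97 (Rbfox3) on the ordinary scale, so the result depends on which markers are averaged.

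**Figure D3:**
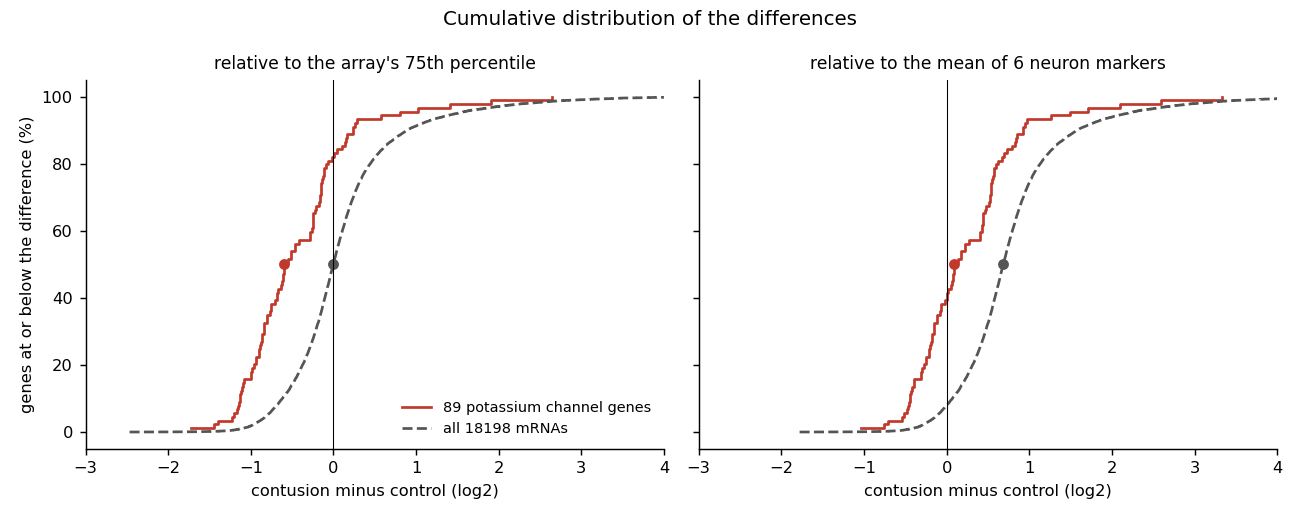
Share of genes (%, y axis) at or below each contusion minus control difference (log2, x axis) for the 89 potassium channel genes (solid red) and all 18198 mRNAs (dashed grey), with the median as a dot. On the left differences are relative to the array's 75th percentile (medians -0.60 and -0.00). On the right they are relative to 6 neuron markers (medians 0.09 and 0.69).

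Many potassium channel genes also give rise to circRNAs, closed rings of exons made by back-splicing. Placed by position, 178 tested circRNAs lay inside exactly 1 potassium channel gene, spread over 31 genes. Of these, 130 (73.0%) were called lower, where 25.7% of all 35613 circRNAs were. None was called higher by limma (1 at an unadjusted p under 0.05, none with normexp and quantile normalization, and 2 without control 1), where 16.2% of all circRNAs were. Their median difference was -0.53, against -0.05 over all circRNAs. Since 158 of the 178 share an end with another circRNA of the same gene, they are not independent. The positions carry no stated build. As a check on GRCm38, 98.5% of all tested circRNAs fell within an annotated gene, which dropped to 40.9% once positions were moved by 1e+06 bases. Strand was left out.

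All 20 circRNAs of Kcnh7 were called lower, with differences from -0.84 to -1.38 around a median of -1.12, close to the -1.14 of its mRNA probe. The 16 circRNAs of Kcnt2 had a median of -0.60, as did its mRNA, and 14 were called lower. For Kcnma1, 29 of 36 circRNAs were called lower, with a median of -0.45, while the mRNA probe that stands for the gene differed by 0.24. Averaged over the 36, circRNA levels were -0.75, -0.69, -0.80 and -0.77 on contusion arrays, against -0.34, -0.36, -0.39 and -0.34 on control arrays, with no overlap. The circRNA mean relative to that mRNA probe was lower in contusion by more than the spread between arrays (contusion minus control -0.64; two-sided exact permutation p = 0.0286, the smallest that 4 against 4 arrays allow; adjusted p = 0.127 over 31 genes). The second Kcnma1 mRNA probe, at -0.57, had the sign of the circRNAs. Kcns3 showed the reverse: its single circRNA had levels of -0.76, -0.65, -0.72 and -0.74 on contusion arrays and -0.74, -0.52, -0.79 and -0.72 on control arrays, a difference of -0.02 ± 0.08 (adjusted p = 0.823), while its mRNA differed by -1.40. The exact permutation p of that contrast was also 0.0286 (adjusted p = 0.127). In all, 7 of the 31 genes reached this smallest p, none below 0.05 after adjustment. The other 5 had circRNAs less lowered than the mRNA, with a circRNA mean relative to the mRNA (contusion minus control) of 0.38 for the 18 circRNAs of Kcnq5, 0.35 for Kcnk10, 0.33 for Kcnc4, 0.23 for Kcnh5 and 0.17 for Kcnk2.

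**Figure D4:**
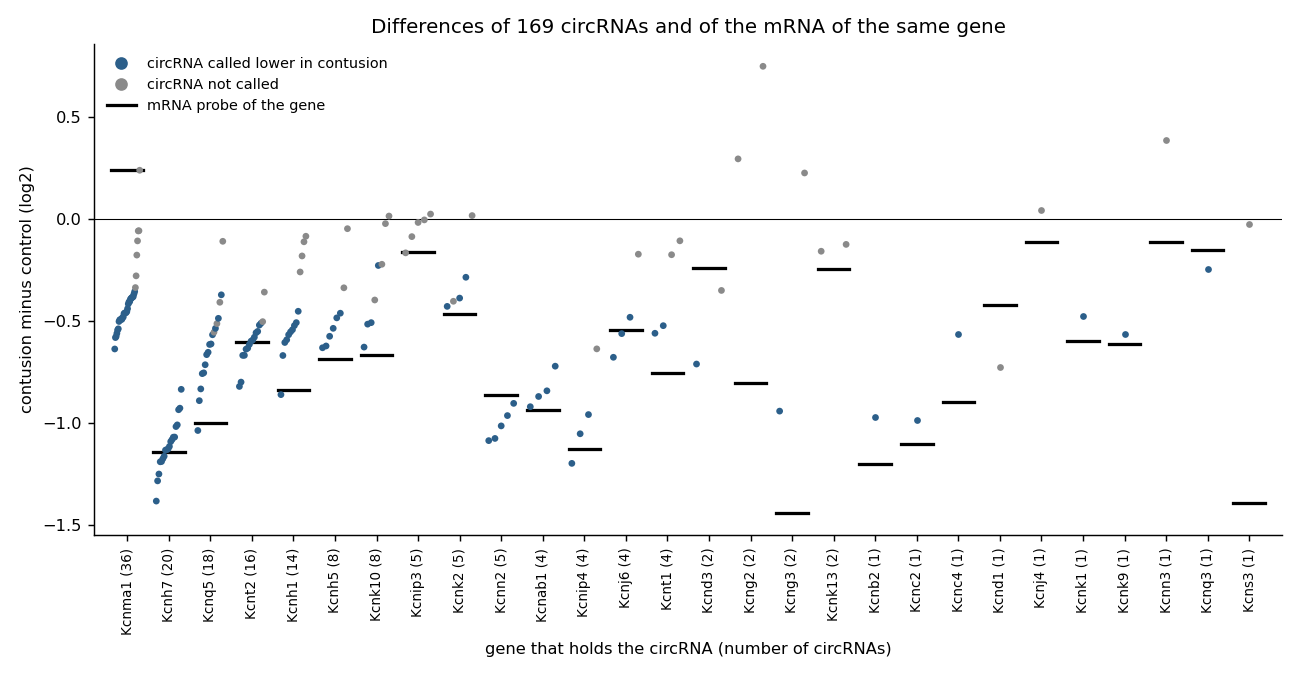
Contusion minus control difference (log2, y axis) of 169 of the 178 circRNAs, each a point, by the potassium channel gene that holds them (x axis, with the number of circRNAs in brackets). Blue points were called lower in contusion and grey points were not called, and black bars give the gene's mRNA. Most circRNAs of Kcnh7 and Kcnt2 lie near their bar, those of Kcnma1 lie below it, and the one of Kcns3 lies above it.

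The lncRNAs tested included 3 named after potassium channel loci. Kcnq1ot1, the imprinted transcript that runs antisense within Kcnq1, had levels of 2.52, 2.49, 2.55 and 2.47 on contusion arrays, against 2.51, 2.99, 2.79 and 2.96 on control arrays. The groups overlapped and its difference of -0.31 ± 0.11 was not called (adjusted p = 0.0548), while Kcnq1 itself rose. Whether either probe also binds RNA of the opposite strand was not tested. Kcnmb4os1 was called higher (0.80 ± 0.20, adjusted p = 0.0138), with 1.25 within slide 1 and 0.17 within slide 2, and Kcnmb4os2 was not called (0.17 ± 0.20).

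Promoter windows of RefSeq (GRCm38.p6, 250 bases before to 50 after a gene's start) were available for 68 of the 93 genes. A list of 8 motifs, chosen with the values known, was searched on both strands. The GC box (GGGCGG) was present in 63.2% of the 68 windows' genes, in 27 of 38 called lower (71.1%) and in 3 of 3 called higher, against 38.2% of all 27025 genes with a window and 49.2% of the 17492 protein-coding ones. A gene with several windows counted as holding a motif if any window did, and took its highest G and C content. Median G and C content was 62.7% in the 68, 63.8% in those called lower and 59.7% in those called higher. It was 53.3% in all genes and 57.3% in the protein-coding ones. The part of G and C content in the GC box shares was not tested. The CCAAT box (CCAAT) was present in 36.8% of the 68 against 41.1% of all genes, the TATA box (TATAAA) in 7.35% against 15.7%, and the AP-1 site (TGANTCA) in 5.88% against 8.97%. The left part of the RE1 element (TTCAGCACC) was present in 1 of the 68 (1.47%), against 0.433% of all genes and 0.48% of the protein-coding ones. Its right part (GGACAGNGC) was present in 2 of the 68 (2.94%), against 2.18% of all genes and 2.52% of the protein-coding ones. Neither part was present in any member called lower or higher. The cyclic AMP response element (TGACGTCA) and the PU.1-type ETS site (GAGGAAGT) were found in none of the 68, against 2.03% and 3.69% of all genes. These are matches of letters, not known sites. The windows below are those of the most raised members with a window, Kcnn4 and Kcne3 (which has 2 annotated starts), and of lowered Kcnc1 and Kcna2, with every match to the 8 motifs in capitals.
Kcnn4, called higher, chr7:24370013-24370312, plus strand: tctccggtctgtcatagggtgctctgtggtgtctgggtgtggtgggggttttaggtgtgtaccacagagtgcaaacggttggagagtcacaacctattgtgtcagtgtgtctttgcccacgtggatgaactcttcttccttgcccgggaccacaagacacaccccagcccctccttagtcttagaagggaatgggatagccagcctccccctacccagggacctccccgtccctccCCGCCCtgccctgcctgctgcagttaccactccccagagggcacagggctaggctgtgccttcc
Kcne3, called higher, chr7:100176420-100176719, plus strand: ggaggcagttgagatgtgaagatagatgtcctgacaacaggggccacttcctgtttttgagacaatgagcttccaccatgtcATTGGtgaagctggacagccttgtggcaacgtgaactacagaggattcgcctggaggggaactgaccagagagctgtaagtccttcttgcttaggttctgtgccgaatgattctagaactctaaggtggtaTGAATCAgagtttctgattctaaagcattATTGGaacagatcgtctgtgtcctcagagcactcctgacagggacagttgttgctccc
Kcne3, second start, chr7:100178433-100178732, plus strand: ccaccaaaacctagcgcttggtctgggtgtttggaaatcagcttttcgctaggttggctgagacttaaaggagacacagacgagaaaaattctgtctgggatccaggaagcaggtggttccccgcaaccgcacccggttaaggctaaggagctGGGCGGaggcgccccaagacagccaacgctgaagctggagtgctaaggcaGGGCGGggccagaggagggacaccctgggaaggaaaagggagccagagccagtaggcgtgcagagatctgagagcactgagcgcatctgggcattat
Kcnc1, called lower, chr7:46396218-46396517, plus strand: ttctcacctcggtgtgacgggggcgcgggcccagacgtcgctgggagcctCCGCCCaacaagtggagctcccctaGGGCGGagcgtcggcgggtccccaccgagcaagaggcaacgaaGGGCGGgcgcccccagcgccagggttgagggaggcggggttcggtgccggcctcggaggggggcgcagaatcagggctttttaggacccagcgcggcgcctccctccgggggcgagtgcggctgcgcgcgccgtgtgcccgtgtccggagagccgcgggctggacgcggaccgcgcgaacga
Kcna2, called lower, chr3:107101317-107101616, plus strand: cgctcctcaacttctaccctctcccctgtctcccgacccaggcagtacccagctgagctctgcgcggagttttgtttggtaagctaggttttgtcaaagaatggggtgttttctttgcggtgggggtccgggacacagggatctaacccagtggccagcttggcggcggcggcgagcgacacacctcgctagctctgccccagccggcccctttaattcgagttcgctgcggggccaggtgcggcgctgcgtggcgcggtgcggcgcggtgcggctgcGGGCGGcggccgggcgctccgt
Kcnc1 holds 3 GC boxes in 74.7% G and C, and Kcna2 holds 1 in 66.7%. In Kcnn4 there is 1 GC box in 59.7% G and C. The first window of Kcne3 holds an AP-1 letter match and 2 CCAAT boxes on the reverse strand but no GC box, and its second window holds 2 GC boxes.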

How the data were processed

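Total RNA was labelled with Cy3 and hybridised to 1 array per mouse, per the labels' protocols. The authors deposited scanner intensity values, background-subtracted and detrended within arrays by Agilent Feature Extraction and not normalized between arrays, per the file headers. Feature Extraction 10.7 and limma are the tools in the submitters' processing notes, whereas the header of each array gives 12.0.3.1. The authors' deposited series table holds log2 values with column medians near 5.40, monotone in each array's log2 intensity (Spearman correlation of 1), and served as an alternative only. It was on the log2 scale, equal in median between arrays and not centred per gene.

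Each array's 75th percentile of processed intensity was subtracted on the log2 scale to give levels, leaving out control and outlier spots. Probes had to be well above background on 4 or more of 8 arrays, and a gene was read from its brightest probe by mean level. Symbols came from the files and, through RefSeq accessions (99.1% of 22694 matched), from GRCm38.p6. Groups were compared with limma 3.58.1 in R 4.3.3 (group as the only term, two-sided), and tables were made in Python 3.11.15. The fit was tested on simulated data. No spot was saturated, and 155279 of the 172336 spots counted in the headers were analysed here. With 4 arrays per group their number limits the precision: the median standard error was 0.101 for the potassium channel genes. The labels say 1 sample per mouse, so p-values measure the spread between mice and arrays together.

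The text names members called with at least a 2-fold difference, the member with the highest mean of each family, a list of textbook members and the larger calls among partners, circRNAs and lncRNAs, which came to 44 members, and gives other members by value. Some of these members and partner genes are not reported here, though counts over the whole list include them. Members, gene lists, motifs and this rule were chosen with earlier results of these data known. Same-numbered contusion and control samples did not deviate together (correlations of -0.30 to -0.00), so replicate numbers were not treated as pairs.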

Additional observations from a re-analysis of the deposited data

Results flagged for a closer look

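Of 82 groups of 4 arrays examined among 41 named members, 4 held an array far from the other 3, its gap to the nearest being a large share of the group's range (Dixon's test). Chance gives about 1 in 20. Contusion 4 was low for Kcna2, at 4.24 against 4.35 to 4.37 on the other contusion arrays, and for Kcnt1, at 3.39 against 3.69 to 3.71. In the control group, array 1 was low for Kcnd2, at 3.21 against 3.65 to 3.72, and array 3 was high for Kcnj2, at 2.39 against 2.09 to 2.13. For Kcna2, Kcnt1 and Kcnd2 the contusion arrays stayed below all controls, and none of the 3 lost its call when any 1 array was left out.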

How the results depend on the processing

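Across 18 alternative settings, 50 to 55 potassium channel genes were called lower and 5 to 7 higher, and 53 of the 59 called genes kept their call and sign in every setting that tested them. The others were Kcna6, Kcnd1, Kcng1, Kcng3, Kcnj12 and Kcnk15, with no change of sign. The median difference moved to -0.30 with normexp and quantile normalization and to -0.52 with slide as a block. Leaving out 1 array at a time gave medians of -0.59 to -0.54, 52 to 55 genes called lower, 5 to 6 called higher, 123 to 128 circRNAs called lower and 0 to 2 called higher. The 2 circRNAs called higher without control 1 lie in Kcnma1 and Kcnn3. With normexp and quantile normalization 9 genes were at least 2-fold lower and 2 at least 2-fold higher, instead of 14 and 4, and the differences of Kcna10, Kcnb2, Kcne3, Kcng3 and Kcnh7, all dim, shrank by more than 1.5 times. The replicate block, for numbers that do not pair the samples, gave 52 genes called lower, 5 called higher, a median of -0.60 and 128 circRNAs called lower. Over 44 named members and all settings, 771 of 789 single-gene results kept their side of the threshold, 2 (both of Kcng3) lost it and 16 gained it, mostly of Kcnj10, Kcnj8 and Kcnma1. The median of all mRNAs stayed within 0.03 of 0 in every setting. Signal near background limits Kcna10, Kcng3 and Kcnj1, and the labels leave the day of 3 contusion samples uncertain.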

Other observations

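Of the 5 potassium channel genes called higher, 4 (Kcnn4, Kcne3, Kcnk6 and Kcnq1) lie on chromosome 7, a pattern noticed after the values were seen. In all, 8 tested potassium channel genes lie on that chromosome, 4 called higher and 4 lower. Kcnc1, Kcnj11 and Kcnj14, among the lower ones, were called at least 2-fold lower. The share of all mRNAs on chromosome 7 was not determined. No test was run on this.

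The 2 pairs of inward rectifier and sulphonylurea receptor had unlike differences. Kcnj11 and Abcc8 differed by -1.12 and -1.00, against 0.23 and 0.31 for Kcnj8 and Abcc9. The difference between the pairs was not tested.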
